A study of Mus musculus with 6 samples.

Results

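Bicarbonate carriers of the Slc4 family and carbonic anhydrases were followed in whole adrenal glands of BPH, an inbred mouse strain that is hypertensive, and BPL, its hypotensive counterpart. All probe sets of the MG_U74Av2 array whose annotation names exactly 1 gene were taken where that gene is Slc4a1, Slc4a2, Slc4a3, Slc4a4, Car2 or Car4. These 6 genes, of the 8251 that such probe sets name, had 7 of the 12488 probe sets on the array, 2 for Car4 and 1 for each other gene. A probe set is a group of short oligonucleotides that query 1 transcript, and its deposited value is an intensity on a linear scale. There were 3 BPH arrays and 3 BPL arrays, each from adrenal RNA. The labels name no treatment, transgene or mutation in either strain, and the animals' age and sex, and whether glands were pooled, are not given in the sources used here. Nothing in the labels says that the 3 arrays of a strain came from separate animals, so the p-values measure only the spread between these arrays.

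Bicarbonate carries much of the acid and base that cells exchange with blood. Slc4a1, Slc4a2 and Slc4a3 (AE1, AE2 and AE3) exchange chloride for bicarbonate, whereas Slc4a4 (NBCe1) moves bicarbonate together with sodium and is best known from the kidney proximal tubule and the pancreatic duct. Carbonic anhydrases interconvert carbon dioxide and bicarbonate, Car2 in the cytosol and Car4 on the outer face of the cell membrane.

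Markers of the adrenal cortex and of the medulla were present on all arrays. The summed intensity of 5 cortex markers (Star, Cyp11a1, Hsd3b1, Cyp21a1 and Nr5a1) ran from 438422 to 520026 in BPH and from 427138 to 500123 in BPL. All 5 markers of chromaffin cells, the catecholamine cells of the medulla, had a positive difference of BPH minus BPL, with a median of 0.69 on the log2 scale. Other tissue was present too. The summed intensity of 6 brown fat markers was 36805 to 63866 in BPH and 100202 to 293085 in BPL without overlap, and that of 7 skeletal muscle markers was far higher on BPH 1 (141819) and BPL 2 (140061) than on the other arrays (9222 to 21795). BPH 1 and BPH 2 were washed on fluidics station 2, and BPH 3 and all BPL arrays on station 1. So the within-station value of each gene rests on BPH 3 alone against the BPL arrays. It assumes that this lone array varies as the others do. Taking the station as a block gives the same difference, since station 2 ran no BPL array.

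The genes did not move one way. Slc4a4 was 4.20-fold lower in BPH than in BPL as a ratio of geometric means, and Car2 was 1.68-fold higher, each past the threshold of a Benjamini-Hochberg adjusted p under 0.05 in limma. Slc4a3 lay higher and 1 of the Car4 probe sets lower on every BPH array than on any BPL array, but neither passed the test. Slc4a2 differed 1.15-fold without passing it, the other Car4 probe set overlapped between strains, and Slc4a1 was too dim to be tested. Intensities below 201.3, the 20th percentile of all values, were set to that floor before log2 was taken, and probe sets whose mean log2 lay under that of the 40th percentile, 668.1, were not tested. So 2 of 6 tested probe sets were called, 1 in each direction, where 2.52% of all 7293 tested probe sets were called, 1.56% as higher and 0.96% as lower in BPH. Arrays did not overlap between the strains for 5 of the 6, against 26.5% of all tested probe sets.

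**Figure D1:**
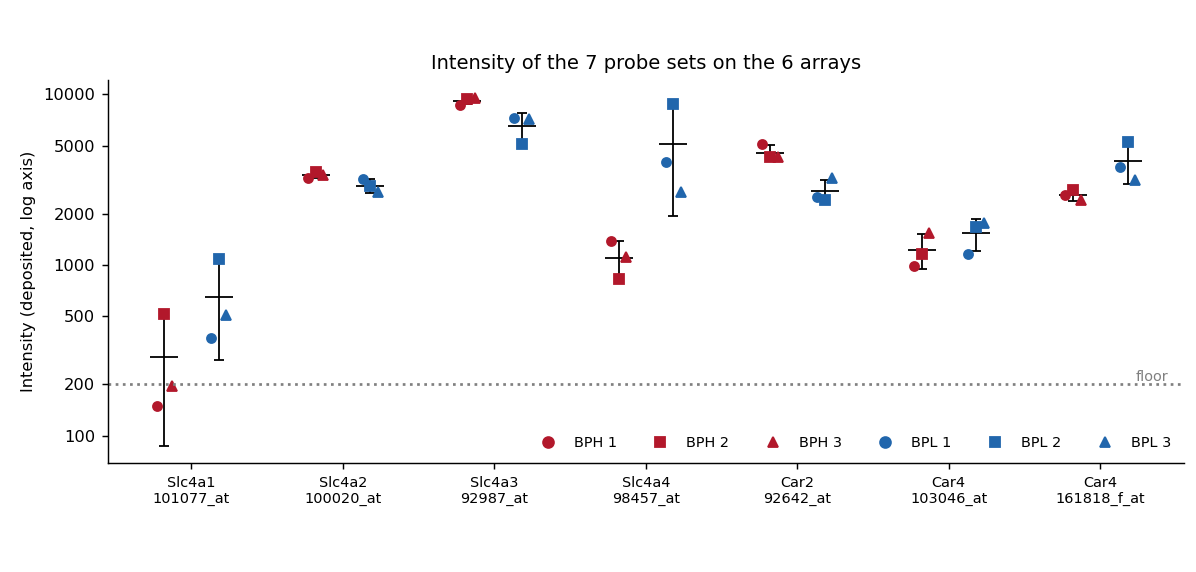
Deposited intensity (log axis) of the 7 probe sets on each BPH and BPL array, with the mean and SD of each strain (n = 3) as black bars and the floor of 201.3 as a dotted line. Slc4a4 shows the widest gap between the strains, with BPH arrays between 825.2 and 1376 and BPL arrays between 2677 and 8767, and Car2 lies higher on all BPH arrays.

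The sodium bicarbonate cotransporter gene Slc4a4 has 2 annotated starts in the RefSeq promoter table of GRCm38.p6, both on the forward strand. They are shown because Slc4a4 has the largest difference among these genes. Which start the transcripts read by its probe set come from was not checked. Each sequence runs from 250 bases before to 50 bases after the start, and capitals mark a CCAAT box found on either strand. No match to AAGGTCA, TGACGTCA or TATAAA was found on either strand of these windows.
Slc4a4 start 1, chr5:88887010-88887309: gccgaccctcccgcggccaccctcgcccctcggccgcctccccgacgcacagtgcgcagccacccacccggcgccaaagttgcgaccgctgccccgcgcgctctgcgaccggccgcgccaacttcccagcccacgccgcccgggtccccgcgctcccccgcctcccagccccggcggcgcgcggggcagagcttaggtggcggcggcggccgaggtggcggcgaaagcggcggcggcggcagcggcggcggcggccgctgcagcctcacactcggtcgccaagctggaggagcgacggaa
Slc4a4 start 2, chr5:89027716-89028015: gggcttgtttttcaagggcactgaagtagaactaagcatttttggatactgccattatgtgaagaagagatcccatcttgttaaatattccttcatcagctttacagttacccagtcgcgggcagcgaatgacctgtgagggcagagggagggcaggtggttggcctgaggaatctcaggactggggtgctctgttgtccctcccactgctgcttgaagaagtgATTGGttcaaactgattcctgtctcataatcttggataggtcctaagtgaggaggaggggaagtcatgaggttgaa
The windows differ in base composition, with 80% G and C at the first start and 48.3% at the second. The capitals of the second begin 26 bases before the start, and CCAAT occurs on either strand in 37.4% of the 32851 promoters of the table. AAGGTCA occurs in 4.72% of them, TGACGTCA in 1.79% and TATAAA in 13.6%.

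Slc4a4 (probe set 98457_at) had intensities of 1376, 825.2 and 1119 on BPH 1, 2 and 3, and 4009.5, 8767 and 2677 on BPL 1, 2 and 3. Every BPH array lay below every BPL array, and BPL 2 stood far above the other BPL arrays. The strain means were 1107 ± 276 (SD, n = 3) in BPH and 5151 ± 3201 in BPL. On the log2 scale the difference of BPH minus BPL was -2.07 (SE 0.39, 95% confidence interval -2.95 to -1.19, limma adjusted p = 0.0319), and 0.302% of tested probe sets had a larger absolute difference. Within BPL its highest array was 3.28 times its lowest, a ratio exceeded by 2.85% of tested probe sets. The direction held within station 1 (-2.02), where BPH 3 alone stands against the BPL arrays. A fit that took the station as a block gave the same difference (-2.02), as station 2 ran no BPL array. The call ended in that fit (limma adjusted p = 0.347). It also ended without BPH 1 (-2.24, adjusted p = 0.068), BPH 2 (-1.87, 0.115), BPH 3 (-2.09, 0.121) or BPL 1 (-2.16, 0.0776), and it held without BPL 2 (-1.60, 0.0262) and without BPL 3 (-2.45, 0.0117), all adjusted p-values from limma.

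The arrays fell in the same order for Slc4a4 as for brown fat transcripts. From high to low that order was BPL 2, BPL 1, BPL 3, BPH 1, BPH 3 and BPH 2, and it was the order of 4 of 6 brown fat markers, Ucp1, Cidea, Cox7a1 and Cox8b, and of 1.36% of all tested probe sets (99). Over the 6 arrays the log2 intensity of Slc4a4 correlated with the mean log2 of the 6 brown fat markers at r = 0.99, and at r = 0.98 after each strain's own mean was taken off. These correlations are descriptions over 6 arrays, which share their whole RNA, and 0.864% of tested probe sets had a larger absolute r after the strain means were removed. Ucp1, the uncoupling protein of brown fat, had 13301, 5336 and 8870 on the BPH arrays and 51083, 98187 and 33362 on the BPL arrays. Of the 4 tested brown fat markers only Ucp1 was called (limma adjusted p = 0.0137), where 2.52% of all tested probe sets were. Ppargc1a and Elovl3 were too dim to be tested. Ppargc1a overlapped between the strains, and Elovl3 lay under the floor of 201.3 on 4 arrays. In whole-gland RNA, fewer cells of a type and less RNA per cell cannot be told apart, and the part of brown fat in the Slc4a4 difference was not tested. Kidney tubule markers were dim. None of the 6 reached the intensity needed for testing, Umod lay under the floor of 201.3 on all arrays, and their summed intensity was 1309 to 1833 in BPH and 1505 to 2634 in BPL. The mean log2 of these markers correlated with Slc4a4 at r = 0.78 over the 6 arrays, and their part in its difference was not tested. With the chromaffin mean Slc4a4 had r = -0.80, and -0.73 after the strain means were taken off, where 26.2% of tested probe sets had a larger absolute value.

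**Figure D2:**
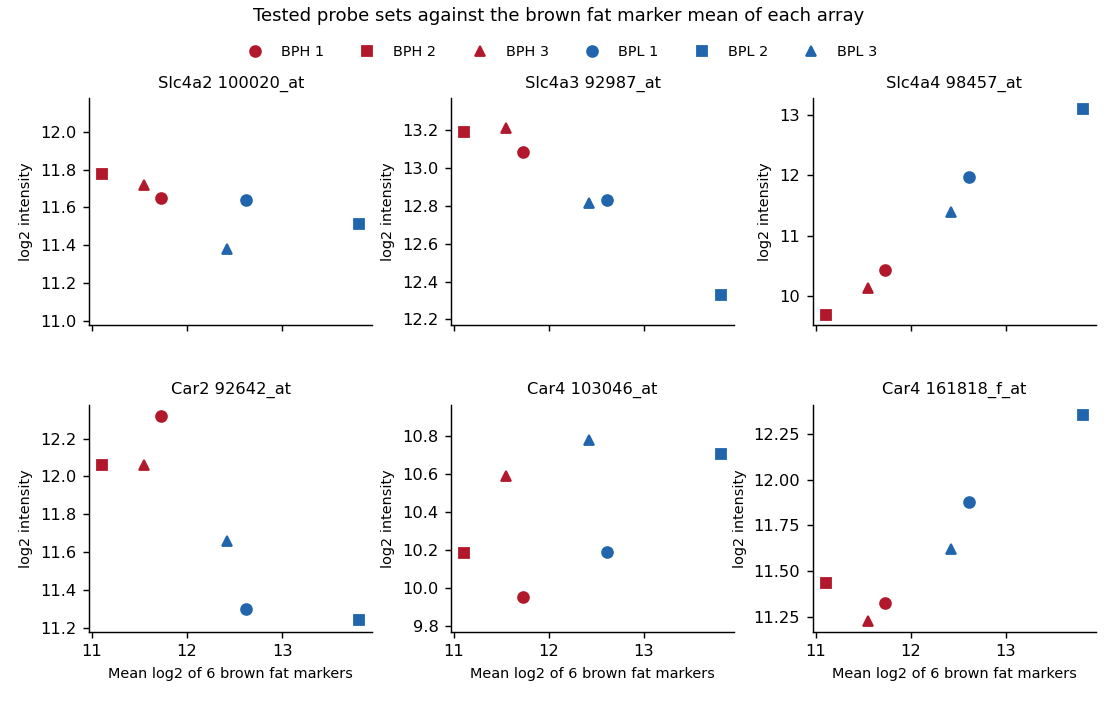
Log2 intensity of the 6 tested probe sets (vertical axes, each with its own range) against the mean log2 intensity of 6 brown fat markers on the same array (horizontal axis), with 1 point per array, BPH in red and BPL in blue. Slc4a4 climbs with the marker mean over all 6 arrays (r = 0.99), Slc4a3 descends (r = -0.98), and Slc4a2 and Car4 103046_at follow it less closely.

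Of 5554 other genes compared at their brightest tested probe set, the patterns most like that of Slc4a4 over the 6 arrays were those of Hadhb (Pearson r = 0.999), Thrsp (0.998), Dnajc15 (0.998), Gpd2 (0.998) and Cox8b (0.996).

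Among the anion exchangers, Slc4a3 (AE3, known mainly from heart and nerve cells) had intensities of 8679, 9348 and 9475 on the BPH arrays and 7293, 5142 and 7202 on the BPL arrays. All BPH arrays lay above all BPL arrays, and BPL 2 was the lowest. The means were 9168 ± 428 (SD, n = 3) in BPH and 6546 ± 1217 in BPL, and the difference on the log2 scale, 0.50 (SE 0.15, 95% confidence interval 0.15 to 0.85), was not called (limma adjusted p = 0.12). It was 0.55 within station 1 and between 0.34 and 0.59 when 1 array was left out. Its arrays ran opposite to the brown fat markers (r = -0.98, and -0.94 after the strain means were taken off, with 4.73% of tested probe sets larger in absolute size). The most alike patterns were those of Slc39a6 (r = 0.996), Tbx3 (0.994) and Hnrnpk (0.991).

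Slc4a2 (AE2, the broadly expressed exchanger) was the steadiest of these genes. Its intensities were 3217, 3505 and 3370 on the BPH arrays and 3186, 2917 and 2662 on the BPL arrays. The strains did not overlap, but BPH 1 and BPL 1 were nearly equal. The means were 3364 ± 144 (SD, n = 3) in BPH and 2922 ± 262 in BPL. The log2 difference of 0.21 (SE 0.13, 95% confidence interval -0.09 to 0.51) was not called (limma adjusted p = 0.427), and the interval leaves room for no difference and for one of 0.51. Parp2 (r = 0.984), Tbc1d1 (0.983) and Rab26os (0.981) had the patterns most like it.

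Slc4a1 (AE1, the band 3 protein of red cell membranes and of acid-secreting kidney cells) lay near the lower end of the measurable range. Its intensities were 149.3, 518.9 and 196.5 on the BPH arrays and 373.1, 1079 and 507.4 on the BPL arrays. The strains overlapped, since BPH 2 exceeded BPL 1 and BPL 3, and 2 of the BPH arrays lay under the floor of 201.3. Its mean log2 intensity fell short of the 668.1 needed for testing, so it was left out of the test. With the low values set to the floor, its log2 difference was -1.09. It depended on single arrays, at -1.55 within station 1, -0.66 without BPL 2 and -0.43 without both BPH 1 and BPL 2, and with no filter on low values it had an adjusted p of 0.503 in limma. The RNA of red cells was present on every array. The summed intensity of 3 red blood cell markers (Hba-a1, Hbb-b2 and Alas2) was 100953 to 102638 in BPH and 82538 to 135813 in BPL. That sum was highest on BPL 2, also the highest array of Slc4a1 and of the summed brown fat, fat, kidney tubule and endothelial markers. Slc4a1 correlated with the red cell mean log2 at r = 0.54 over the 6 arrays. The value was 0.68 with brown fat, 0.58 with kidney tubule, -0.74 with chromaffin and -0.73 with macrophage markers. It was smaller in size with fat, skeletal muscle and endothelial markers. The part of red cells or of these other tissues in the Slc4a1 values was not tested.

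Genes that work beside band 3 in red cells, or that drive red cell differentiation, showed no call. Of 21 listed, 11 were on the array and 8 were tested. In limma 0 of them were called, where 2.52% of all tested probe sets were, and 2 had an unadjusted p under 0.05, where 19.3% of all did. Their median log2 difference was -0.09 beside 0.03 for all tested probe sets. Gata1 and Klf1, the erythroid transcription factors, differed by -0.58 (limma adjusted p = 0.197) and -0.74 (0.233). Gata1 was read at the brighter of its 2 probe sets. The beta globin gene Hbb-b2 differed by 0.17, and Ank1, the ankyrin that anchors band 3, by 0.11 at its brightest probe set. Both values were slightly negative when 1 BPL array was left out (-0.00459 without BPL 1 for Hbb-b2 and -0.051 without BPL 3 for Ank1). The probe sets of Ank1 also disagreed in sign with all arrays kept. Its other tested probe set differed by -0.19 (limma adjusted p = 0.77), and the remaining one was too dim to be tested.

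Car2, the fast cytosolic carbonic anhydrase of red cells, kidney and many secretory cells, had intensities of 5105, 4275.5 and 4274 on the BPH arrays and 2517, 2418 and 3236 on the BPL arrays. Every BPH array lay above every BPL array, and BPL 3 was the nearest BPL array to BPH. The means were 4552 ± 479.6 (SD, n = 3) in BPH and 2724 ± 447 in BPL. The log2 difference was 0.75 (SE 0.16, 95% confidence interval 0.39 to 1.10, limma adjusted p = 0.0463), close to the threshold, and 6.98% of tested probe sets had a larger absolute difference. The difference was 0.66 within station 1 (adjusted p = 0.648) and 0.58 without the arrays BPH 1 and BPL 2 that carried skeletal muscle transcripts (adjusted p = 0.193). The call held without BPL 3 (0.88, limma adjusted p = 0.0207) and ended without any other single array, where the difference lay between 0.66 and 0.79 and the adjusted p between 0.0902 and 0.154. With the arrays scaled to 1 median it was 0.77 (adjusted p = 0.0556), and with the replicate number as a block 0.75 (adjusted p = 0.086).

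Car2 varied with chromaffin markers. It ran against brown fat markers over the 6 arrays, but only weakly once the strain means were taken off. Over the 6 arrays its log2 intensity correlated at r = 0.82 with the mean log2 of 5 chromaffin markers (Th, Pnmt, Chga, Chgb and Ddc). With the brown fat mean it had r = -0.86, where 16.2% of tested probe sets had a larger absolute value. After the strain means were taken off, r was 0.89 with the chromaffin mean, where 7.86% of tested probe sets had a larger absolute value, and -0.39 with the brown fat mean, where 61.2% did. All 5 chromaffin markers had a positive strain difference, with a median of 0.69 (log2) beside 0.03 for all tested probe sets. It was 0.98 for Pnmt (limma adjusted p = 0.0729), whose arrays did not overlap, 0.78 for Th, 0.69 for Chga, 0.19 for Chgb and 0.08 for Ddc. In limma 0 of the 5 were called, where 2.52% of all tested probe sets were, and 3 had an unadjusted p under 0.05, where 19.3% of all did. Their summed intensity, most of it from Chgb, was 198326 to 243239 in BPH and 115489 to 214606 in BPL. The part of chromaffin cell content in the Car2 difference was not tested. Red blood cell markers, whose cells hold Car2 protein, overlapped between the strains, and the part of red cells in the Car2 difference was not tested. The patterns most like that of Car2 were those of Aldh1a1 (r = 0.998), Hsd3b6 (0.997), Otud4 (0.994), Ipo5 (0.991) and Kdm3a (0.990).

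Car4, the membrane-anchored enzyme of capillary endothelium and kidney tubules, was read by a pair of probe sets that differed. Probe set 161818_f_at had 2566, 2771 and 2390.4 on the BPH arrays and 3763, 5232 and 3153 on the BPL arrays, with all BPH arrays below all BPL arrays and BPL 2 the highest. Its means were 2576 ± 191 (SD, n = 3) in BPH and 4049 ± 1069 in BPL, and its log2 difference of -0.62 (SE 0.19, 95% confidence interval -1.06 to -0.19) was not called (limma adjusted p = 0.121). Without BPL 3 it was called (-0.79, limma adjusted p = 0.0483), and within station 1 it was -0.73. The suffix f marks a probe set in which some probes also match related sequences. Probe set 103046_at had 990.4, 1165 and 1540.2 on the BPH arrays and 1168, 1669.5 and 1762 on the BPL arrays. Here the strains overlapped, and BPH 3 lay above BPL 1. Its means were 1232 ± 281 (SD, n = 3) in BPH and 1533 ± 319 in BPL, and its log2 difference was -0.32 (SE 0.25, 95% confidence interval -0.87 to 0.24, limma adjusted p = 0.514), with 0.030 within station 1 and between -0.50 and -0.17 when 1 array was left out.

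Over the 6 arrays the Car4 probe sets correlated at only r = 0.38 on the log2 scale. The first followed Slc4a4 (r = 0.94) and the brown fat mean (r = 0.93, and 0.79 after the strain means were taken off, with 20.6% of tested probe sets larger in absolute size). Against the chromaffin mean it had r = -0.92, and -0.93 after the strain means were taken off, where 4.74% of tested probe sets were larger. The second did not follow the brown fat mean closely (r = 0.50, and 0.14 within strains) or the chromaffin mean (-0.21 and 0.13). With the mean of the dim kidney tubule markers it had r = 0.83 over the 6 arrays. A link of this kind was not particular to that probe set. With the same mean, r was 0.70 for 161818_f_at, 0.78 for Slc4a4 and -0.81 for Slc4a3. For the kidney markers no value within strains was computed. Among them, Umod lay under the floor on all arrays and Slc22a6 on 5. The summed intensity of 6 endothelial markers, to which Eng adds most, was 23136 to 25152 in BPH and 23819 to 26125 in BPL. Its members did not go one way: Tek differed by 0.36 (limma adjusted p = 0.213) and Tie1 by -0.70 (0.16), each without overlap between the strains. The part of these cells in the Car4 values was not tested. Elovl6 (r = 0.991), Acsl5 (0.990) and Aatk (0.988) had the patterns most like that of 161818_f_at.

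**Figure D3:**
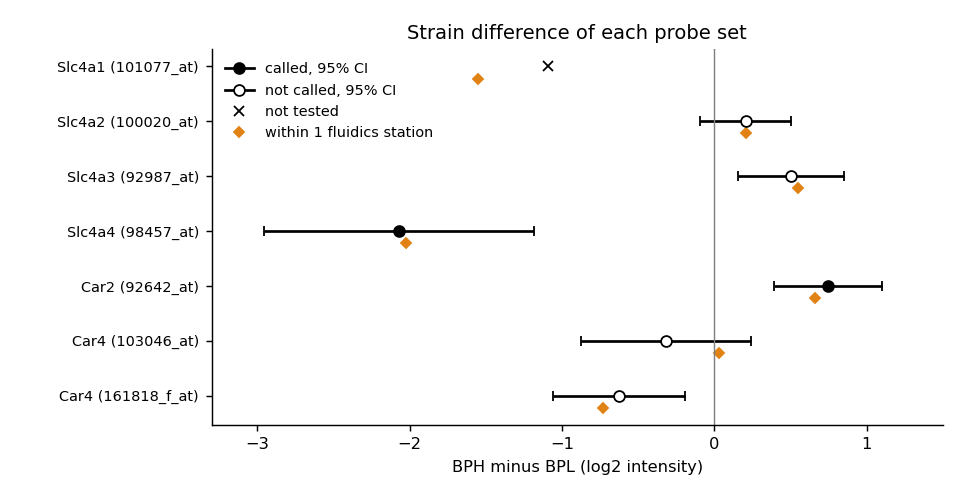
Difference of BPH minus BPL in log2 intensity for the 7 probe sets (circles, with 95% confidence intervals for those tested, filled where called), and the difference of BPH 3 from the BPL arrays within fluidics station 1 (diamonds). Slc4a4 lies at -2.07 and Car2 at 0.75, and the within-station values have the same sign for all but Car4 103046_at (-0.32 and 0.030).

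Across the arrays these genes formed opposed patterns. Slc4a4 correlated with Slc4a3 at r = -0.97, with Car2 at -0.90 and with Car4 161818_f_at at 0.94 over the 6 arrays, where the strain difference itself adds to each value. Slc4a2 was less closely tied to Slc4a4 (r = -0.65).

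Other genes of bicarbonate, proton and carbon dioxide handling were measured only in part. Of 42 listed, 16 had a probe set that names 1 gene, and 7 of these were tested. The rest of the 16 were too dim, where 7293 of all 12422 probe sets other than controls were tested. In limma 0 of these 7 were called and 2 had an unadjusted p under 0.05, where 2.52% and 19.3% of all tested probe sets did. Their median log2 difference was -0.28 beside 0.03 for all tested probe sets. The 7 were Car3, Aqp1, Slc9a3r2, Ahcyl1, Cftr, Slc9a8 and Car14. Car3, the carbonic anhydrase of fat and slow muscle, had intensities of 74900, 63172 and 67893 on the BPH arrays and 52569, 59625 and 42826 on the BPL arrays. All BPH arrays lay above all BPL arrays, with a log2 difference of 0.42 (SE 0.15, limma adjusted p = 0.183). The summed intensity of 5 general fat markers, among them Adipoq and Fabp4, was 105700 to 130770 in BPH and 97556 to 170224 in BPL, with Adipoq and Lpl adding most. Of these 5, Retn lay higher on all BPH arrays, as Car3 did (0.58 on the log2 scale, limma adjusted p = 0.112). The other 4 overlapped between the strains, and all 4 had negative differences, from -0.37 for Fabp4 to -0.09 for Adipoq. The median log2 difference of the 5 was -0.13. The part of fat in the Car3 values was not tested.

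Aqp1, the water channel of red cells, kidney tubules and capillaries, had 981.6, 1307 and 1446 on the BPH arrays and 1460.0, 3358 and 1963 on the BPL arrays. Its log2 difference was -0.79 (SE 0.30, limma adjusted p = 0.203), with BPH 3 and BPL 1 nearly equal and BPL 2 again the highest. It was -0.46 without BPL 2, -0.30 without both BPH 1 and BPL 2, and -1.06 without BPL 1. The scaffold gene Slc9a3r2 (NHERF2), which tethers sodium-proton exchangers, differed by -0.36 (limma adjusted p = 0.33). Ahcyl1 (IRBIT), which binds the Slc4a4 protein and activates it, differed by -0.28 (limma adjusted p = 0.33), and its BPH arrays (25598 to 27858) lay below its BPL arrays (28120 to 39203). Without BPL 2 its difference was -0.14. The carbonic anhydrase genes Car1, Car5a, Car6, Car8 and Car12, and the transporter genes Slc4a5, Slc4a8, Slc26a1 and Slc26a2, were too dim to be tested.

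**Figure D4:**
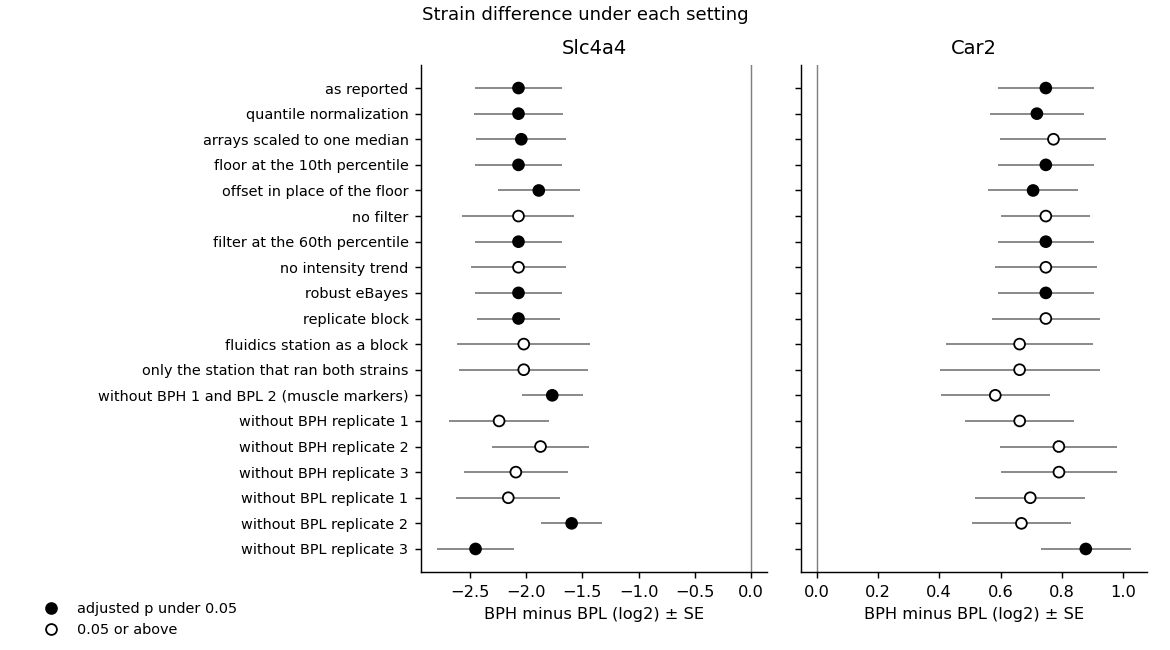
Difference of BPH minus BPL in log2 intensity with its SE for Slc4a4 and Car2, as reported and under 18 other settings of the processing, with filled points where the limma adjusted p is under 0.05. Slc4a4 stays between -2.45 and -1.60 and Car2 between 0.58 and 0.88, while the call comes and goes.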

How the data were processed

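RNA of 6 adrenal samples was measured on Affymetrix MG_U74Av2 arrays, per the file headers of the array runs. The deposited intensities, 1 per probe set and array, had been scaled by the authors before deposit, since their mean, without the outer 2% on either side, was 2501.3 to 2501.5 for each array. Their software is not named in the labels or headers, and no detection call or probe-level signal was used. Median intensities lay between 1003.5 and 1114.7, and the number of arrays limits the precision.

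Intensities under the 20th percentile of the table (201.3) were set to it and taken to log2. This floor understates differences of dim genes. The 66 control probe sets and those with a mean log2 under that of the 40th percentile (668.1) were left out, which kept 7293. BPH minus BPL was fitted over all of these in limma 3.58.1 (R 4.3.3; lmFit, then eBayes with trend), two-sided, with Benjamini-Hochberg adjustment over all tested probe sets and a threshold of 0.05. The fit was tested on simulated data. Symbols came from the platform annotation, updated by gene number for 10839 of 10855 probe sets with 1 gene. A promoter was matched by symbol for 4 of 6 genes.

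The genes, lists and tests were chosen with earlier results of these data known. Named genes were all probe sets of the 6 genes, called members and up to 4 others with the smallest p of each list, and the 3 genes (5 for a called gene) of highest correlation. Each listed or marker gene was read at its brightest probe set only. Where such a gene has others, they are given here for Ank1 alone. The labels do not say whether same-numbered BPH and BPL arrays belong together, and the main fit did not pair them. Deviations of same-numbered arrays from their strain means correlated at -0.22, -0.08 and 0.01, and those of differently numbered arrays at -0.09 to 0.16. With so few arrays these values cannot settle whether arrays were paired. Alternatives were other scalings, floors, filters and variance models, the replicate number and the fluidics station as blocks, and single arrays left out.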

Additional observations from a re-analysis of the deposited data

How the results depend on the processing

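Over 19 alternatives the number of called probe sets in the whole table ran from 7 to 361, against 184, and the number called among the 7 studied ran from 0 to 3, against 2. The counts, whole table first, were 48 and 0 at an adjusted p under 0.01, 52 and 0 with no filter, 83 and 0 without the intensity trend, 18 and 0 with a station block, and 7 and 0 within station 1. Only 1 of the studied probe sets, Slc4a4, was called with arrays scaled to 1 median, with the replicate block, and without BPH 1 and BPL 2. With 1 array left out the counts ran from 42 to 361 and from 0 to 3.

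Direction was kept by Slc4a2, Slc4a3, Slc4a4, Car2 and Car4 161818_f_at under all alternatives run. Slc4a4 lost its call with no filter (-2.07), without the trend (-2.07), with a station block (-2.02) and within station 1 (-2.02), and ran from -2.45 to -1.60 with 1 array left out. Car2 lost it under the same alternatives (0.75, 0.75 and 0.66), with 1 median (0.77), with the replicate block (0.75) and without BPH 1 and BPL 2 (0.58), and ran from 0.66 to 0.88 with 1 array left out. Car4 161818_f_at ran from -0.79 to -0.42 and was called only without BPL 3. Car4 103046_at turned to 0.030 with a station block and within station 1. With 1 array left out, Hbb-b2 ran from -0.00459 to 0.40 and the brightest Ank1 probe set from -0.051 to 0.25. Fewer arrays enter the fits within station 1, with an array left out and without BPH 1 and BPL 2. With the station as a block the strain difference rests on BPH 3 alone against the BPL arrays, as it does within station 1. For the other changes the cause was not tested. The replicate block changed no other call among these genes. Signals near the floor of 201.3, as for Slc4a1, carry no reliable difference.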
